A study of Rattus norvegicus with 48 samples.

Results

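The soleus of rats bred for a low response to endurance training (LRT) was compared after 3 d of hindlimb immobilization (HI) with the soleus of uncast LRT controls (CTRL), across all expressed genes. Members were taken by sample label, as the 6 soleus LRT HI and the 6 soleus LRT CTRL libraries, which are 12 of the 48 RNA-seq libraries of the series. All rats were females aged 14 months from generation 19 of a bidirectional selection that also produced a high-response line (HRT), and all had completed treadmill training earlier in life. In HI rats 1 hindlimb was held in a fibreglass cast with the ankle plantar-flexed, whereas CTRL rats were separate animals with no cast, and rats of both kinds were anaesthetised and given puromycin before muscle collection. Plantaris from the same rats and both muscles of HRT rats, again 6 libraries a group, completed the series. The rats are genetically heterogeneous, since the lines were selected and not inbred, so differences between animals of 1 group include genetic ones.

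The soleus is a postural muscle of the calf made up mainly of slow, oxidative fibres that are active during standing. Casting removes weight bearing and, in plantar flexion, keeps the muscle short. Muscle that is unloaded loses protein through less synthesis and more breakdown by the ubiquitin-proteasome and autophagy pathways, while genes that answer to calcium, stretch and contraction receive less input.

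The LRT soleus libraries held 26.9 M to 34.2 M estimated counts each, within the range of the whole series (26.8 M to 36.4 M). RNA integrity (RIN) averaged 8.02 ± 0.17 (SD, n = 6) in HI and 8.12 ± 0.19 (SD, n = 6) in CTRL, a difference that was within the spread (2-sided exact permutation test, p = 0.407). Pvalb (parvalbumin), a calcium buffer of fast fibres, was at 0.373 to 3.83 CPM (estimated counts relative to sequencing depth after TMM normalisation) in LRT CTRL soleus and at 1981 to 3116 CPM in LRT CTRL plantaris. The summed level of 8 fast-fibre markers was 3390 to 5912 CPM in LRT CTRL soleus against 29170 to 38952 CPM in LRT CTRL plantaris, and 4 slow-fibre markers were at 2457 to 4470 against 326 to 599 CPM, so the CTRL libraries matched their muscle label. In LRT HI soleus, Pvalb was at 2.68 to 43.1 CPM and the fast-fibre markers summed to 2783 to 6040 CPM, both below every LRT HI plantaris library (1067 to 1530 and 8126 to 24822 CPM), but the slow-fibre sum of HI replicates 1, 3 and 4 (508, 381 and 477 CPM) lay within the range of CTRL plantaris.

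Immobilization was accompanied by 409 differentially expressed genes (DEGs) in LRT soleus, of which 241 were higher and 168 lower in HI. A DEG had an absolute log2 fold change above 1 and an adjusted p under 0.05 in edgeR's quasi-likelihood test, and DEGs were 2.41% of the 16960 genes tested (1.42% higher, 0.991% lower). At an adjusted p under 0.05 with no fold threshold, 2364 genes (13.9%) were called, 1248 (7.36%) higher and 1116 (6.58%) lower. The median log2 fold change was 1.37 among DEGs that rose and -1.26 among DEGs that fell, and 64 DEGs (38 higher, 26 lower) had an absolute log2 fold change above 2. In 108 DEGs the 6 HI values lay wholly outside the 6 CTRL values (64 above, 44 below), and over all tested genes this was so for 658, or 3.88% (1.79% above, 2.09% below). DEGs that rose had a median level of 1.6 CPM and those that fell 5.14 CPM, against 7.54 CPM for all tested genes. The number of DEGs was 249 without HI replicate 3, 154 when the 12 LRT soleus libraries were fitted alone and 252 when every soleus library had to hold 10 counts. When libraries were scaled to their totals, the split was 397 higher and 125 lower, and limma-voom gave 192 higher and 219 lower. In the fit of the 12 LRT soleus libraries alone, 420 of the 422 called genes with a symbol were tested, and 191 of them were also called at an adjusted p under 0.05. Among genes named by a fixed rule, Hspa5, Colq, Klhl21, Irs2, Adamts9, Prodh1, Slc2a5, Ano1, P2rx6, Enho, Cdkn1a, LOC100362684 and Gabrr1 lost their call there. Other genes mentioned below, Arntl, Fbn1, Fhl2, Gpx1, Nog, Sqstm1, Vegfa and Zfand2a among them, also lost theirs. Adjusted p-values of the genes listed here ran from 0.0503 to 0.163 in that edgeR fit.

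The 6 cast muscles differed in their median change over the DEGs. The DEGs were called from these same libraries, so a gap between HI and CTRL was built into these medians. Libraries that weighed most in the calls can also score higher, and the medians are descriptions. Relative to the CTRL mean, DEGs that were higher in HI had a median log2 difference of 1.6, 1.13, 1.66, 1.46, 0.68 and 0.64 in HI replicates 1 to 6. For DEGs that were lower in HI, the medians were -1.80, -1.30, -1.93, -1.44, -1.02 and -0.79 in the same order. Replicates 5 and 6 therefore stood nearest to the controls in both directions. They had the highest RIN values of the group, 8.2 each, and the part of RIN in this was not tested beyond its use as a covariate.

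**Figure D1:**
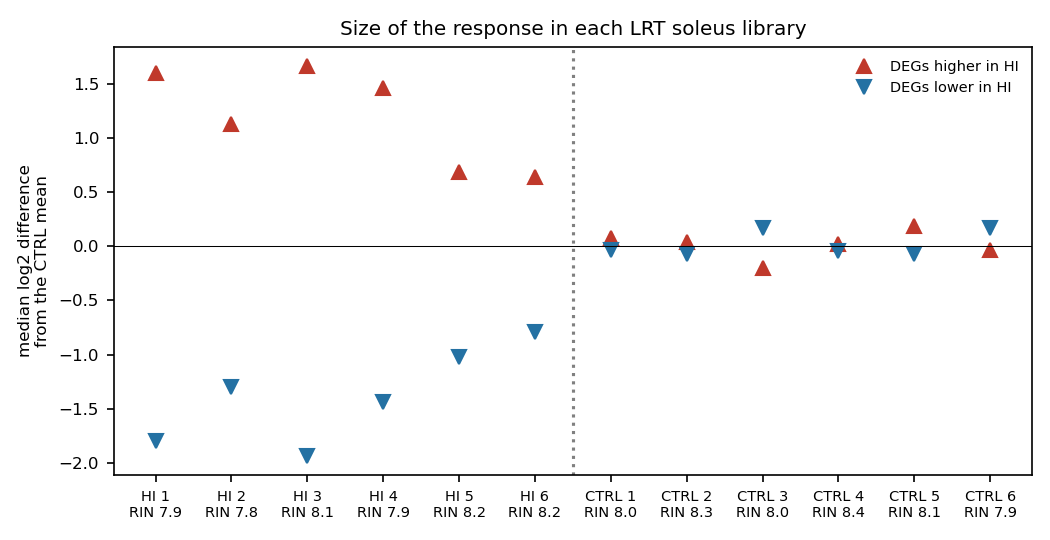
The vertical axis gives the median log2 difference of each LRT soleus library from the CTRL mean, over the DEGs higher in HI (upward triangles) and lower in HI (downward triangles), with RIN under each library on the horizontal axis. The 6 HI libraries run from 0.64 to 1.66 for higher DEGs and from -0.79 to -1.93 for lower DEGs, while CTRL libraries stay close to 0. The DEGs were called from these same libraries, so a gap between the groups was built in.

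Gene symbols were available for 1142 of 31998 gene identifiers (3.57%), taken from the DEG tables of the study, of which 309 came from the table of this comparison. A gene with a symbol was therefore likelier to have changed somewhere in these muscles. Of the 1142 genes, 23.6% were DEGs here (12.4% higher, 11.2% lower) and 37.0% had an adjusted p under 0.05 (209 higher, 213 lower). These shares are the reference for the list counts below. Of the 833 genes whose symbol came from the tables of other comparisons only, 2.4% were DEGs. List counts below are descriptions, and a list drawn from such genes is not independent evidence of its direction. Of the 409 DEGs, 270 had a symbol (142 higher, 128 lower).

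Upstream sequences of 6 responding genes are shown, each with a motif that its pathway's transcription factor is known to bind. RefSeq (build GRCr8) held an entry on the same chromosome for 735 of the 1142 genes, and the 250 bases before the listed start are given 5′ to 3′ on the gene's strand. Capitals mark the motif on either strand, and the genes were picked after their values had been seen.
Mt2A, chr19:10838709-10838958, minus strand, metal response element TGCACNC or TGCGCNC: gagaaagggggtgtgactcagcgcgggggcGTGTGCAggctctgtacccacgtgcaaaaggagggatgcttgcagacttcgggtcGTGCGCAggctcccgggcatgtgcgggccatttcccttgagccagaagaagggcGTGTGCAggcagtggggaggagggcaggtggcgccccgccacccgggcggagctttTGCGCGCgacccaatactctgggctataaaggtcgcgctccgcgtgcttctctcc
Slc30a2, chr5:151843201-151843450, plus strand, metal response element: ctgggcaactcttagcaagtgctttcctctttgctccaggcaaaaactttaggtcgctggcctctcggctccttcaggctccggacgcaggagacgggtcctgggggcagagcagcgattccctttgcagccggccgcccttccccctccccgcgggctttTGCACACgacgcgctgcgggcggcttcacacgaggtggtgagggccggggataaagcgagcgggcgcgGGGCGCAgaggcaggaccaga
Hsph1, chr12:10427118-10427367, plus strand, heat shock element GAANNTTC: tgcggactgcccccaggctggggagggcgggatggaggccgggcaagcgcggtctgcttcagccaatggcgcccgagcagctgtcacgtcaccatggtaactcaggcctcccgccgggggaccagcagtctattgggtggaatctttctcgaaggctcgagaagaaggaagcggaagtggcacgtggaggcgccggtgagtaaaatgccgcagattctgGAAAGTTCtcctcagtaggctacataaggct
Fhl2, chr9:52923327-52923576, minus strand, CArG box: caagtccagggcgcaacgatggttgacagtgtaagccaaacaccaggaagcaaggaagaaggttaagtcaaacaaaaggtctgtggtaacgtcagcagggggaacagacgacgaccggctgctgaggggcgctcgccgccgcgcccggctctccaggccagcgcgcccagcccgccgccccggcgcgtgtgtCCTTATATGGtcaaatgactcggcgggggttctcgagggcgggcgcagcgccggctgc
Chac1, chr3:126795881-126796130, plus strand, amino acid response element TGATGNAA: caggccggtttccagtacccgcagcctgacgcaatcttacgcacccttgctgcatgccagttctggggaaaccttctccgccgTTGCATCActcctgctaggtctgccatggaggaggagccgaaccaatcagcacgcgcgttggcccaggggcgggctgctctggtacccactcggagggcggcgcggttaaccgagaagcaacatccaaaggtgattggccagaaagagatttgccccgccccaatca
Dusp1, chr10:17184603-17184852, plus strand, cAMP response element TGACGTCA: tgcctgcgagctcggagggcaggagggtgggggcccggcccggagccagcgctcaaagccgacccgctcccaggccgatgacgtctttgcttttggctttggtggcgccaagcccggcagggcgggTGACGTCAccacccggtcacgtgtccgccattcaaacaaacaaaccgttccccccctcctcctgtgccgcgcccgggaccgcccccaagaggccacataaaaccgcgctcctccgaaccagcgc

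Over all 33469 RefSeq upstream windows of this length, 20.6% held the metal response element, 7.23% the heat shock element, 1.5% the CArG box, 3.4% the amino acid response element and 1.59% the cAMP response element. Mt2A held 4 matches and Slc30a2 2, in the window of 1 of its 2 listed starts. Among genes of the functional lists that had an entry, the metal response element was found in 6 of 7 metal handling genes, the heat shock element in 3 of 10 heat shock genes and the CArG box in 2 of 21 sarcomere genes. The amino acid response element was found in 1 of 9 genes of its list and the cAMP response element in 5 of 19 immediate early genes. A gene was counted if the window of any of its listed starts held the motif, so these counts cannot be set directly against the shares per window. The metal handling genes with the motif were Mt2A, Mt3, Slc30a2, Slc31a2, Slc41a3 and Tfrc. Mt3, Slc31a2 and Slc41a3 did not pass in LRT soleus, and Tfrc fell. A match describes the letters of this window and is not a binding site.

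Genes linked to muscle activity fell more often than they rose. Of 24 immediate early and activity-linked genes tested, 12 fell and 1 rose at an adjusted p under 0.05, 11 did not pass, and the median log2 fold change was -0.98 against 0.01 over all tested genes and -0.15 over all genes with a symbol. The symbols of 13 of the 24 came from the table of this comparison, and 37.0% of all genes with a symbol passed. Jund, Nr4a1, Dusp8, Phlda1 and Rgs1 lost their call with the 12 LRT soleus libraries alone. Nr4a3, an orphan nuclear receptor induced by exercise, was at 0.433, 0.538 and 0.793 CPM (lowest, median, highest) in HI and at 0.973, 3.36 and 10.2 CPM in CTRL. All HI values lay below every CTRL value, and the log2 fold change was -3.13 ± 0.70 (SE; adjusted p = 0.00238, edgeR). Its relative Nr4a2 was at 0.893, 1.47 and 1.96 CPM in HI against 2.30, 3.43 and 16.8 CPM in CTRL, again with no overlap (log2 fold change -2.46, adjusted p = 0.00103). Atf3, a stress-induced transcription factor, ranged from 5.74 to 34.7 CPM in HI and from 30.9 to 170.3 CPM in CTRL, so that only HI replicate 5 reached the control range (-2.63, adjusted p = 0.000615). Rcan1, an inhibitor of calcineurin whose transcript itself rises with calcineurin activity, had a median of 72.7 CPM in HI and 739 CPM in CTRL (-2.22, adjusted p = 0.00609). Dusp1, a MAP kinase phosphatase whose cAMP response element is printed above, was at 29.4 to 59.3 CPM in HI and at 65.9 to 109 CPM in CTRL (-1.09, adjusted p = 0.00398). Fos and Egr1 had log2 fold changes of -1.05 and -0.73 and did not pass (adjusted p = 0.158 and 0.198).

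Of 25 tested genes of the sarcomere and of mechanical sensing, 14 fell and 2 rose, all as DEGs, 9 did not pass, and the list median was -1.08. The symbols of 19 of the 25 came from the table of this comparison, and 37.0% of all genes with a symbol passed. Abra, Fhl2, Enah, Lmod3, Vgll2, Myoz3, Lrrfip1 and Itgb1bp2 lost their call with the 12 LRT soleus libraries alone. Their log2 fold changes in that fit ran from -0.95 (Lmod3) to -1.35 (Enah). Actc1, the cardiac alpha-actin that skeletal muscle also makes during growth, was at 11.4, 15.1 and 95.8 CPM in HI and at 111, 124 and 190.1 CPM in CTRL. The groups did not overlap, although HI replicate 6 stood close to the controls and far from the other HI libraries (log2 fold change -2.21 ± 0.39 SE, adjusted p = 0.000197). Tgfb1i1, a focal adhesion adaptor, had the smallest adjusted p of the list, with 0.891 to 1.6 CPM in HI and 1.94 to 2.99 CPM in CTRL (-1.12, adjusted p = 3.01e-05). Myocd, a coactivator of serum response factor, was at a median of 2.06 CPM in HI and 7.15 CPM in CTRL (-1.64, adjusted p = 0.000143). Fhl2, a LIM-domain protein whose CArG box is printed above, was at 10.4 to 55.7 CPM in HI and 43.0 to 77.8 CPM in CTRL (-1.14, adjusted p = 0.0184), and its call was lost without HI replicate 1, 2 or 3 or CTRL replicate 3 or 6, where its adjusted p reached up to 0.0641. The exceptions that rose were Mamstr, a coactivator of MEF2 (1.57, adjusted p = 0.00147), and Myh14, a non-muscle myosin heavy chain found at 114 to 240.3 CPM in HI and 78.3 to 113 CPM in CTRL (1.05, adjusted p = 0.000196).

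Of 13 heat shock and chaperone genes tested, 11 fell and 1 rose at an adjusted p under 0.05, with a median of -1.0. The symbols of 11 of the 13 came from the table of this comparison, and 37.0% of all genes with a symbol passed. With the 12 LRT soleus libraries alone, only Hspa1b, Dnajb4 and Hsph1 kept their call. The members that lost a call as lower had log2 fold changes from -0.87 (Dnajb5) to -1.37 (Hspa5) in that fit, and Zfand2a had 1.49. Hspa1b, an inducible cytosolic chaperone, was at 3.40, 6.80 and 33.1 CPM in HI and at 47.8, 76.1 and 99.0 CPM in CTRL. Every HI muscle lay below every control, with replicates 5 and 6 the highest of the cast group (log2 fold change -2.64 ± 0.62 SE, adjusted p = 0.00347). Reads of Hspa1b can be shared with a near-identical copy, so its level is uncertain. Dnajb4, a co-chaperone, had 37.3 to 105 CPM in HI and 116 to 224 CPM in CTRL (-1.18, adjusted p = 0.000356). Hspa5, the chaperone of the endoplasmic reticulum, had 72.1 to 157 CPM in HI and 155 to 753.0 CPM in CTRL, where CTRL replicate 3 held the highest value (-1.36, adjusted p = 0.000357). Without that library the log2 fold change of Hspa5 was -0.71 (adjusted p = 0.00486). Hsph1, with the heat shock element printed above, was at 28.4 to 74.4 CPM in HI and 82.6 to 115 CPM in CTRL (-0.99, adjusted p = 0.00384). Zfand2a, a stress-induced regulator of the proteasome, was the member that rose (1.65, adjusted p = 0.0328), from 9.61 to 12.6 CPM in CTRL to 10.8 to 71.6 CPM in HI, a call that was lost without HI replicate 1 or 3 or CTRL replicate 1, 4 or 6.

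**Figure D2:**
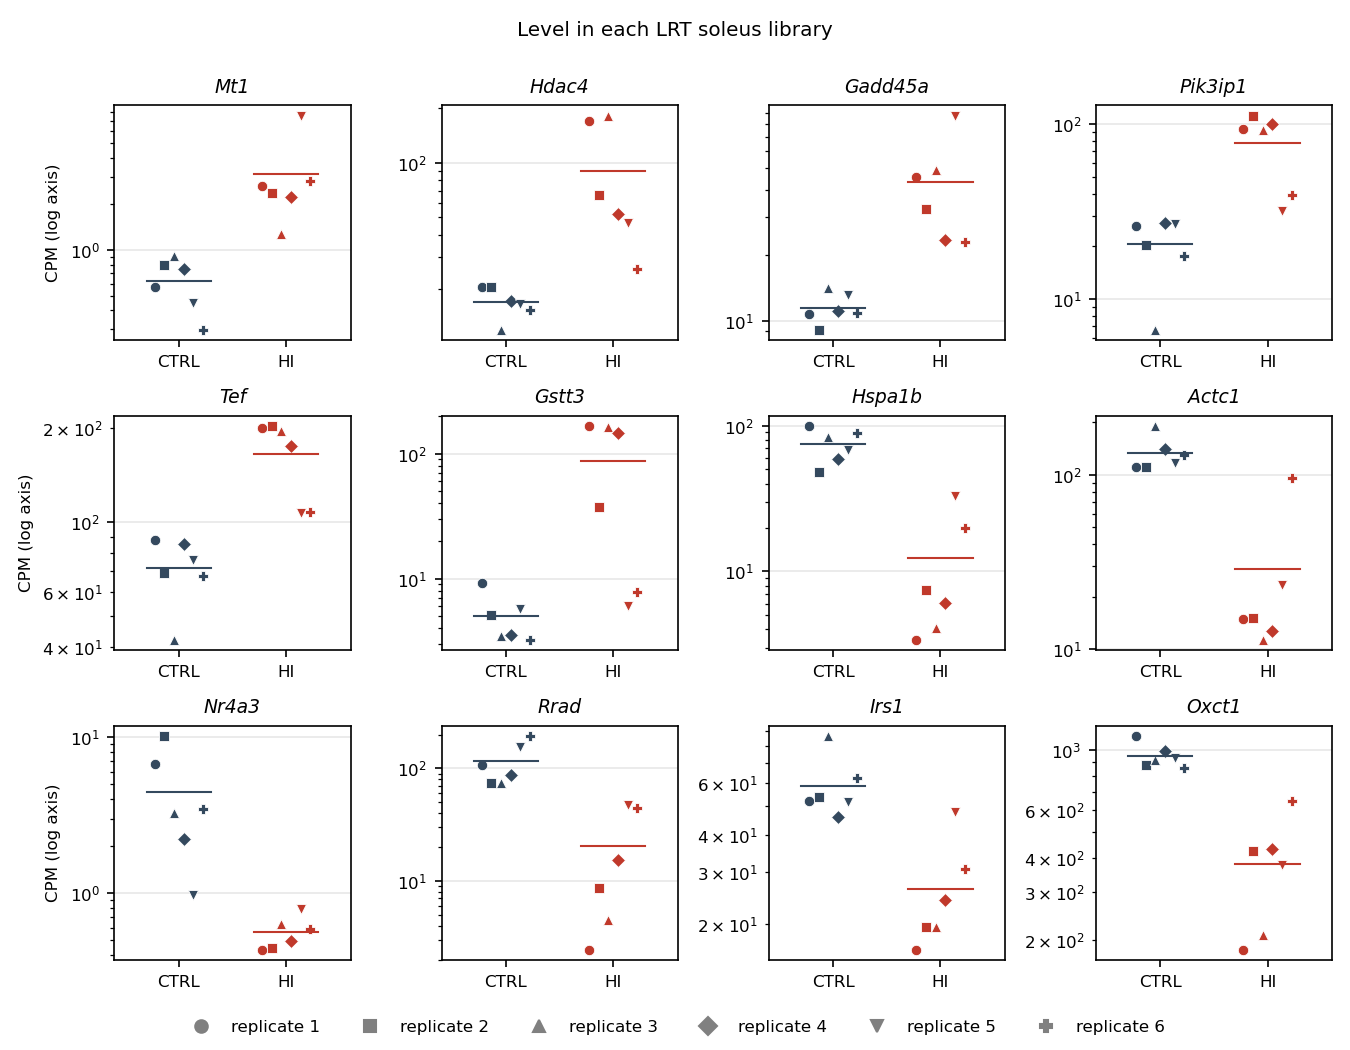
Each panel gives CPM on a log axis for 12 genes, with CTRL libraries on the left, HI libraries on the right, a symbol shape for each replicate number and the group mean as a line. Hspa1b, Actc1, Nr4a3, Rrad and Oxct1 lay below every control in all 6 HI libraries, and replicates 5 and 6 of HI sit nearest to the controls for Tef, Pik3ip1, Rrad and Gstt3.

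Of 9 metal handling genes tested, 4 rose and 1 fell, each as a DEG, 4 did not pass, and the median was 0.83. The share passing over all genes with a symbol was 37.0%. The symbols of 6 of the 9 came from the table of this comparison. Mt1, a metallothionein that binds zinc and copper, was at 1.27, 2.49 and 7.55 CPM in HI and at 0.298, 0.658 and 0.909 CPM in CTRL, with no overlap (log2 fold change 2.29 ± 0.38 SE, adjusted p = 0.000151). Mt2A, with 4 metal response elements in the sequence above, was at 2.58, 2.88 and 18.8 CPM in HI and at 1.19, 1.51 and 2.02 CPM in CTRL (1.86, adjusted p = 0.00468), and its call was lost without HI replicate 5, which held the highest value. Slc30a2, a zinc exporter, was at 3.51, 9.44 and 15.5 CPM in HI and at 0.454, 1.79 and 3.85 CPM in CTRL (2.28, adjusted p = 0.0122). Slc25a28, a mitochondrial iron importer, had 23.9 to 56.4 CPM in HI and 18.1 to 24.8 CPM in CTRL (1.08, adjusted p = 9.24e-05). Tfrc, the transferrin receptor for iron uptake, fell from 145 to 258 CPM in CTRL to 34.9 to 137 CPM in HI (-1.26, adjusted p = 0.00154). Mt1 and Mt2A are members of a multigene family whose reads can be split among copies, and the table that gave the symbol Mt1 places its identifier on another chromosome than RefSeq places Mt1, so the value may belong to another copy.

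The denervation and disuse list was mixed. Of 15 genes tested, 3 rose, 1 fell and 11 did not pass, and the median was 0.32. Over all genes with a symbol 37.0% passed, a share that this list did not exceed. Hdac4, a histone deacetylase that rises in denervated muscle, was at 25.9, 59.3 and 181.3 CPM in HI and 11.9, 16.9 and 20.5 CPM in CTRL. Every cast muscle exceeded every control, and HI replicates 1 and 3 were the highest (log2 fold change 2.44 ± 0.44 SE, adjusted p = 0.000313). Gadd45a, a growth arrest gene linked to fibre atrophy, was at 22.9, 39.1 and 87.0 CPM in HI and 9.08, 10.9 and 14.1 CPM in CTRL (1.96, adjusted p = 0.00366). Cdkn1a, the cell cycle inhibitor p21, ranged from 8.27 to 67.6 CPM in HI and from 8.27 to 16.3 CPM in CTRL, so the groups overlapped (1.33, adjusted p = 0.0260), and its adjusted p reached 0.128 without HI replicate 5, with the call also lost without HI replicate 3 or CTRL replicate 4. Colq, which anchors acetylcholinesterase at the neuromuscular junction, was the member that fell (-1.72, adjusted p = 0.00317). Myog (myogenin), the acetylcholine receptor organiser Musk and Runx1, all raised by denervation in textbook accounts, had log2 fold changes of 0.01, 0.32 and 1.04 and did not pass (adjusted p = 0.993, 0.662 and 0.195).

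The classical atrophy ligases showed no detectable rise in this muscle. Trim63 (MuRF1) was at 98.5, 209 and 313.5 CPM in HI and 92.3, 157 and 178 CPM in CTRL, with a log2 fold change of 0.47 ± 0.36 (SE, adjusted p = 0.406). Fbxo32 (atrogin-1) was at 211, 348 and 516 CPM in HI and 64.0, 239 and 269.6 CPM in CTRL (0.74 ± 0.33 SE, adjusted p = 0.131). HI replicates 1, 3 and 4 lay above every control for both genes and replicate 5 for Trim63 alone, while replicates 2 and 6 lay within the control range for both. Of 24 ubiquitin ligase and proteasome genes tested, 7 rose and 4 fell at an adjusted p under 0.05. Over all genes with a symbol 37.0% passed, 209 of them higher and 213 lower in HI. The symbols of 9 of the 24 came from the table of this comparison. Sh3rf2, a RING-domain ligase, rose from 4.32 to 13.9 CPM in CTRL to 18.1 to 95.5 CPM in HI, with no overlap (2.31 ± 0.40 SE, adjusted p = 0.000196). Klhl21, a substrate adaptor of cullin ligases, rose by 1.14 on the log2 scale (adjusted p = 8.97e-05). Asb5, an adaptor of another cullin complex, fell by 1.28 (adjusted p = 0.00250).

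Several autophagy genes rose. Of 10 tested, 6 rose, none fell and 4 did not pass, with a median of 0.76, and 37.0% of all genes with a symbol passed. Sqstm1, Ulk1 and Creg1 lost their call with the 12 LRT soleus libraries alone. Tp53inp1, which promotes autophagosome formation, was at 17.0, 32.0 and 45.8 CPM in HI and 8.66, 11 and 13.0 CPM in CTRL, with no overlap (log2 fold change 1.56 ± 0.22 SE, adjusted p = 3.01e-05), and it was the DEG of the list. Map1lc3b, the autophagosome coat protein LC3B, was at 48 to 97.3 CPM in HI and 38.4 to 45.7 CPM in CTRL (0.71, adjusted p = 0.00781). Sqstm1, the cargo receptor p62, had a log2 fold change of 0.85 (adjusted p = 0.0184), and Ctsl, a lysosomal protease, 1.00 (adjusted p = 0.0192). The call of Sqstm1 was lost without HI replicate 1 or 3 and that of Ctsl without HI replicate 3.

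The study's list of 146 atrophy-related genes was also read. Symbols paired with 53 of them, and 9 rose, 5 fell and 39 did not pass, with a median of -0.04 that was 0.10 when libraries were scaled to their totals. The DEGs among them were Hdac4, Gadd45a, Cdkn1a and Fam214a, which rose, and Fbn1 and Oxct1, which fell. Fam214a was at 67.0, 203 and 308 CPM in HI and 36.2, 62.3 and 79.8 CPM in CTRL (1.66 ± 0.29 SE, adjusted p = 0.000196).

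Genes of insulin signalling and translation control moved both ways. Of 10 tested, 3 rose and 3 fell, beside 37.0% called in either direction over all genes with a symbol. Irs1, the main insulin receptor substrate of muscle, was at 16.4, 21.9 and 47.8 CPM in HI and 45.9, 52.9 and 86.3 CPM in CTRL, and only HI replicate 5 reached the control range (log2 fold change -1.14 ± 0.27 SE, adjusted p = 0.00348). Irs2 fell by 1.64 (adjusted p = 0.00491). Pik3ip1, an inhibitor of phosphoinositide 3-kinase, was at 31.9, 92.6 and 111 CPM in HI and 6.68, 23.1 and 27.3 CPM in CTRL, with no overlap (1.90 ± 0.30 SE, adjusted p = 9.06e-05). Eif4ebp1, a repressor of cap-dependent translation, was at 17.4 to 47.2 CPM in HI and 10.7 to 20.5 CPM in CTRL (0.97, adjusted p = 0.00302) and missed the fold threshold for a DEG. Foxo1 had a log2 fold change of 0.14 and did not pass (adjusted p = 0.757).

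In the list for stress of the endoplasmic reticulum and amino acid supply, 2 of 10 rose and 4 fell. The share called over all genes with a symbol was 37.0%. Chac1, which degrades glutathione and whose amino acid response element is printed above, was at 4.47, 6.45 and 13.5 CPM in HI and 0.941, 1.55 and 2.62 CPM in CTRL, with no overlap (log2 fold change 2.35 ± 0.40 SE, adjusted p = 0.000166). Mthfd1l, an enzyme of mitochondrial one-carbon metabolism, rose from 1.23 to 1.91 CPM in CTRL to 2.49 to 6.11 CPM in HI (1.25, adjusted p = 0.000243). Atf3 and Hspa5, given above, and Creb3l1 (-1.18, adjusted p = 0.00365) fell as DEGs.

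**Figure D3:**
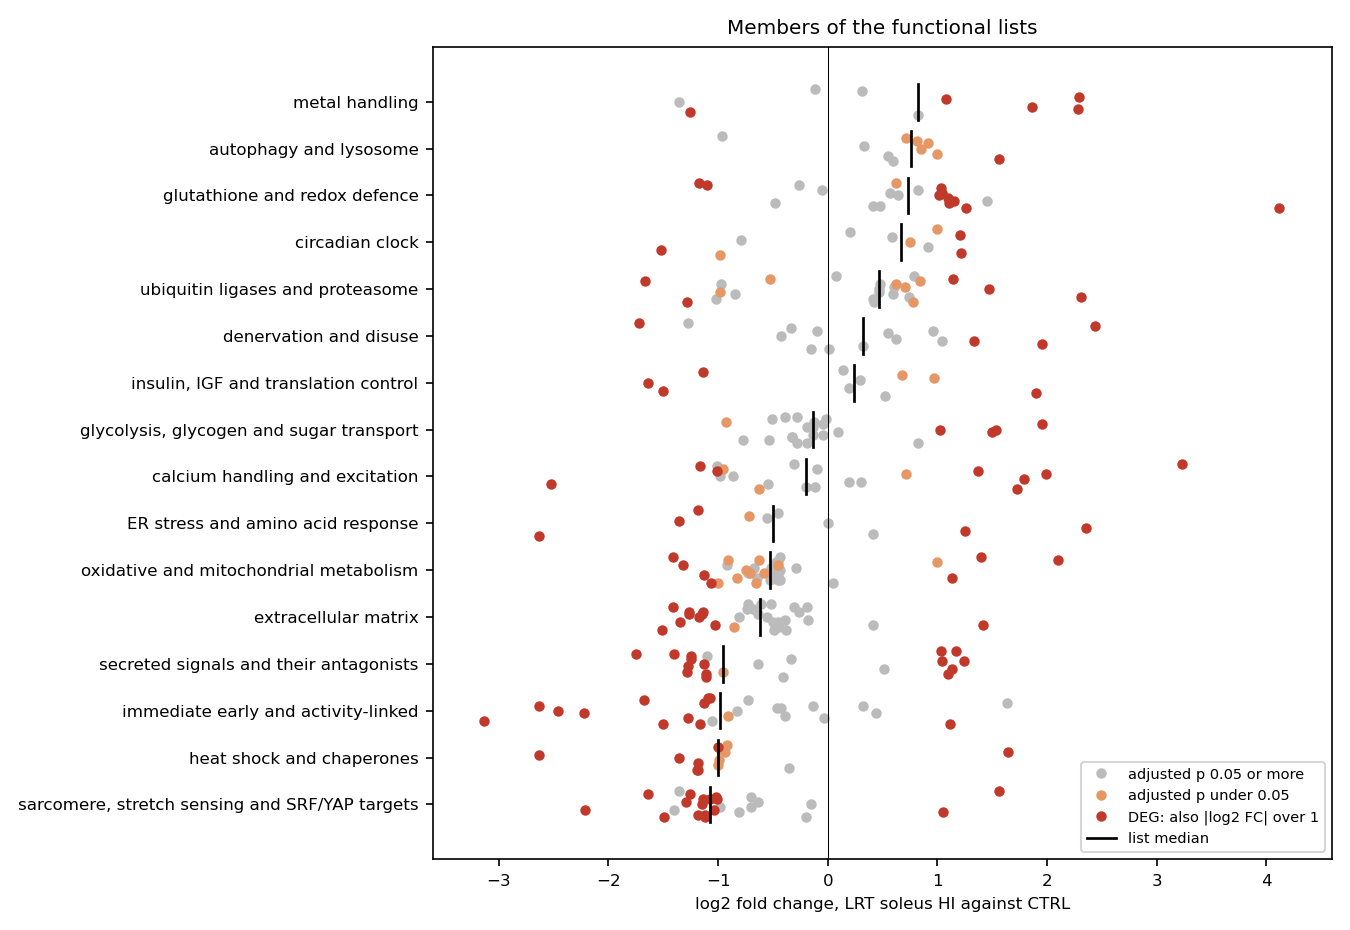
The horizontal axis is the log2 fold change of each tested member of the 16 functional lists in LRT soleus (HI against CTRL), coloured by call, and a black bar marks the list median. List medians run from -1.08 for sarcomere and mechanical sensing genes to 0.83 for metal handling genes.

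Clock genes changed in both directions. Of 10 tested, 4 rose and 2 fell, beside 37.0% called in either direction over all genes with a symbol. Tef, a clock-controlled transcription factor, was at 107, 186 and 203 CPM in HI and 42.1, 72.3 and 87.6 CPM in CTRL, with no overlap (log2 fold change 1.21 ± 0.18 SE, adjusted p = 3.01e-05). Npas2, a partner of Arntl, was at 2.20, 2.89 and 4.90 CPM in HI and 6.04, 9.75 and 11.9 CPM in CTRL (-1.52, adjusted p = 0.000315). The time of day of each collection was not used here, so its part in these values was not tested.

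Genes of oxidative metabolism fell more often than they rose. Of 34 genes tested, 13 fell and 4 rose, and the median was -0.52. Over all genes with a symbol 213 were called lower and 209 higher. The symbols of 10 of the 34 came from the table of this comparison. With the 12 LRT soleus libraries alone, only Oxct1, Ndufs1, Esrrg and Mpc1 kept their call as lower, and Chchd6 and Sfxn5 as higher. Members that lost a call as lower had log2 fold changes from -0.43 (Atp5c1) to -1.41 (Perm1) in that fit. Oxct1, which lets mitochondria use ketone bodies, was at 185, 403 and 647 CPM in HI and 859, 925 and 1124 CPM in CTRL, with no overlap (log2 fold change -1.32 ± 0.31 SE, adjusted p = 0.00356). Esrrg, a nuclear receptor of oxidative fibres, was at 26.3, 35.6 and 71.3 CPM in HI and 71.1, 81.0 and 114.9 CPM in CTRL (-1.07, adjusted p = 0.000665). Mpc1, a subunit of the mitochondrial pyruvate carrier, fell by 0.91 with no overlap between groups (adjusted p = 0.00168). Ppargc1a, a master regulator of mitochondrial content, had a log2 fold change of -0.29 and did not pass (adjusted p = 0.541). Prodh1, the first enzyme of proline breakdown, rose by 2.10 (adjusted p = 0.000517), from 2.21 to 5.89 CPM in CTRL to 3.91 to 33.2 CPM in HI.

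Of 23 glycolysis, glycogen and sugar transport genes tested, 4 rose, 1 fell and 18 did not pass, with a median of -0.14, and of all 1142 genes with a symbol 720 did not pass. Aldoc, an aldolase isoform, was at 3.63, 8.53 and 13.0 CPM in HI and 1.46, 2.12 and 2.66 CPM in CTRL, with no overlap (log2 fold change 1.95 ± 0.26 SE, adjusted p = 1.69e-05). Khk, the kinase of fructose, rose by 1.02 (adjusted p = 0.00312). Slc2a5, a fructose transporter, had a log2 fold change of 1.5 (adjusted p = 0.00993), but HI replicate 2 held 13.7 CPM and the other HI libraries 1.81 to 3.74 CPM, and without that library the value was 0.73 (adjusted p = 0.117).

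Calcium handling and excitation genes were split. Of 21 tested, 6 rose and 5 fell, beside 37.0% called in either direction over all genes with a symbol. Rrad, a GTPase that restrains voltage-gated calcium channels, was at 2.44, 12.1 and 47.0 CPM in HI and 74.3, 97.3 and 193.6 CPM in CTRL, with no overlap (log2 fold change -2.53 ± 0.65 SE, adjusted p = 0.00726). Pvalb was at 2.68, 7.20 and 43.1 CPM in HI and 0.373, 1.13 and 3.83 CPM in CTRL (3.23 ± 0.56 SE, adjusted p = 0.000196), and HI replicates 4 and 6 lay within the control range. Ano1, a calcium-activated chloride channel, rose by 1.73 (adjusted p = 0.00114), and P2rx6, an ATP-gated channel subunit, by 1.37 (adjusted p = 0.00116).

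Redox genes rose more often than they fell. Of 20 tested, 9 rose and 2 fell, and the median was 0.73. Over all genes with a symbol 209 were called higher and 213 lower. The symbols of 7 of the 20 came from the table of this comparison. Gstt1, Gstt2, Msrb1, Gclm and Gpx1 lost their call with the 12 LRT soleus libraries alone. Gstt3, a glutathione transferase, had the largest log2 fold change of all members described here, 4.12 ± 0.71 (SE, adjusted p = 0.000179). Its level was 165.8, 37.2, 162.5, 146.4, 6.08 and 7.86 CPM in HI replicates 1 to 6 and 3.24 to 9.21 CPM in CTRL. Replicates 1 to 4 thus exceeded every control while replicates 5 and 6 lay within the control range. Fmo2, a flavin monooxygenase, showed a smaller and even response of 20.7, 23.4 and 28.1 CPM in HI against 10.6, 11.5 and 13.0 CPM in CTRL (1.04, adjusted p = 0.000143). Gpx3, the secreted glutathione peroxidase, rose by 1.01 (adjusted p = 0.00498). Msrb3, a methionine sulfoxide reductase, fell by 1.17 (adjusted p = 0.0010), and so did Gpx1, the cytosolic peroxidase (-1.10, adjusted p = 0.0193), although its call was lost without HI replicate 1, 3 or 4 or CTRL replicate 3.

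Of 30 matrix genes tested, 10 fell, 1 rose and 19 did not pass, with a median of -0.62. This pass rate was close to the 37.0% over all genes with a symbol. Col5a3, a fibrillar collagen chain, was at 6.62, 9.71 and 16.3 CPM in HI and 21.8, 25.4 and 51.8 CPM in CTRL, with no overlap (log2 fold change -1.51 ± 0.26 SE, adjusted p = 0.000166). Mamdc2, a secreted proteoglycan, was at 2.93 to 7.70 CPM in HI and 9.57 to 14.4 CPM in CTRL (-1.14, adjusted p = 0.000166). Adamts9, a protease that cleaves versican, fell by 1.34 (adjusted p = 0.000467). The main fibrillar collagens Col1a1 and Col3a1 had log2 fold changes of -0.56 and -0.44 and did not pass (adjusted p = 0.494 and 0.495).

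Of 21 genes of secreted signals tested, 6 rose, 10 fell and 5 did not pass, while 37.0% of all genes with a symbol passed. Vegfa, Osm, Apln, Fgf1, Nog, Dkk2, Dkk3, Enho, Ccl7 and Wfdc1 lost their call with the 12 LRT soleus libraries alone. The symbols of 16 of the 21 came from the table of this comparison, so this pass rate is not independent of how the genes were found. Chrd, an antagonist of bone morphogenetic proteins, was at 6.16, 7.69 and 8.20 CPM in HI and 3.16, 3.40 and 4.71 CPM in CTRL (log2 fold change 1.04 ± 0.17 SE, adjusted p = 0.000138). Nog, a further antagonist of these proteins, rose by 1.24 (adjusted p = 0.00562). Il6r, the interleukin-6 receptor, was at 26.1 to 38.2 CPM in HI and 11.9 to 21.2 CPM in CTRL (1.03, adjusted p = 0.00224). Enho, which encodes the peptide adropin, rose by 1.10 (adjusted p = 0.00248). Cxcl12, a chemokine, fell by 0.95 with no overlap (adjusted p = 3.01e-05). Vegfa, the main angiogenic factor, was at 58.5, 104 and 174 CPM in HI and 189, 202 and 381 CPM in CTRL, with no overlap (-1.11 ± 0.28 SE, adjusted p = 0.00579).

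Among DEGs with a symbol, which leaves out 139 of the 409, the largest rises without overlap were those of Sec1, Cd24, Hdac4, Chac1, Sh3rf2, Mt1, Lrrn1 and Zfp503, and the largest falls those of Nr4a3, Hspa1b, Rrad, Nr4a2, Dnah5, Actc1, Lrrc30 and Dok5. Cd24, a small surface glycoprotein, was at 7.73, 19.5 and 70.8 CPM in HI and 1.79, 4.66 and 5.69 CPM in CTRL (log2 fold change 2.75 ± 0.45 SE, adjusted p = 0.000138). Sec1, a fucosyltransferase gene, was at 0.863 to 5.29 CPM in HI and 0.210 to 0.522 CPM in CTRL (2.92 ± 0.53 SE, adjusted p = 0.000296), on 7 to 14 counts per control library. Lrrn1 and Zfp503 rose by 2.27 and 2.15 (adjusted p = 0.000770 and 0.000646). Dnah5, an axonemal dynein heavy chain, was at 11.1, 31.5 and 123 CPM in HI and 191, 243 and 384 CPM in CTRL (-2.40 ± 0.57 SE, adjusted p = 0.00383). Lrrc30 fell by 2.16 and Dok5, a docking protein of receptor tyrosine kinases, by 1.98 (adjusted p = 0.00383 and 0.000324).

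Marker genes of other cell types were read in the same libraries. The summed level of 6 endothelial and pericyte genes was 18.2 to 24.5 CPM in HI and 27.5 to 51.5 CPM in CTRL, with no overlap. Of these 6 genes, 5 fell and 1, Clec1a, did not pass, and 4 of the 6 came from the table of this comparison. Bcl6b, a transcription factor of endothelium, had a log2 fold change of -1.33 (adjusted p = 0.000961) and Cd248, a pericyte protein, -1.23 (adjusted p = 0.00113). In whole muscle, fewer cells of a type and less RNA per cell cannot be told apart. Slow-fibre markers summed to 381, 943 and 3469 CPM in HI (lowest, median, highest) and to 2457, 2931 and 4470 CPM in CTRL, and HI replicates 1, 3 and 4 lay within the range of LRT CTRL plantaris, 326 to 599 CPM. None of the 4 slow-fibre markers passed the test, with a median log2 fold change of -0.97. Casq2, Ankrd2 and Fabp3 had -1.01, -1.35 and -0.92, while Pln had 0.31. Ankrd2 is also in the sarcomere list and Fabp3 in the oxidative list. Myosin heavy chain genes had no symbol here and were not read. The fast-fibre sum did not rise with the fall of the slow-fibre sum, at 2783 to 6040 CPM in HI.

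The remaining marker sums overlapped between groups. Leukocyte genes were at 17.6 to 30.6 CPM in HI and 20.1 to 30.3 CPM in CTRL, with 1 of 8 genes lower and none higher. Erythrocyte genes were at 489 to 1449 CPM in HI and 222 to 976 CPM in CTRL, adipocyte genes at 30.7 to 79.0 and 46.2 to 173 CPM, and fibroblast and tendon genes at 170 to 879 and 390 to 793 CPM, and none of these 19 genes passed. Nerve and Schwann cell genes were at 8.88 to 43.7 CPM in HI and 11.3 to 14.5 CPM in CTRL, where 1 of 4 rose. That gene was Cntn2, an axonal adhesion molecule, at 4.0, 23.0 and 37.9 CPM in HI and 1.63, 3.16 and 4.40 CPM in CTRL (2.82, adjusted p = 0.000193). No measured marker was at 0 in every library of either group. The part of a change in cell content in the results above was not tested.

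**Figure D4:**
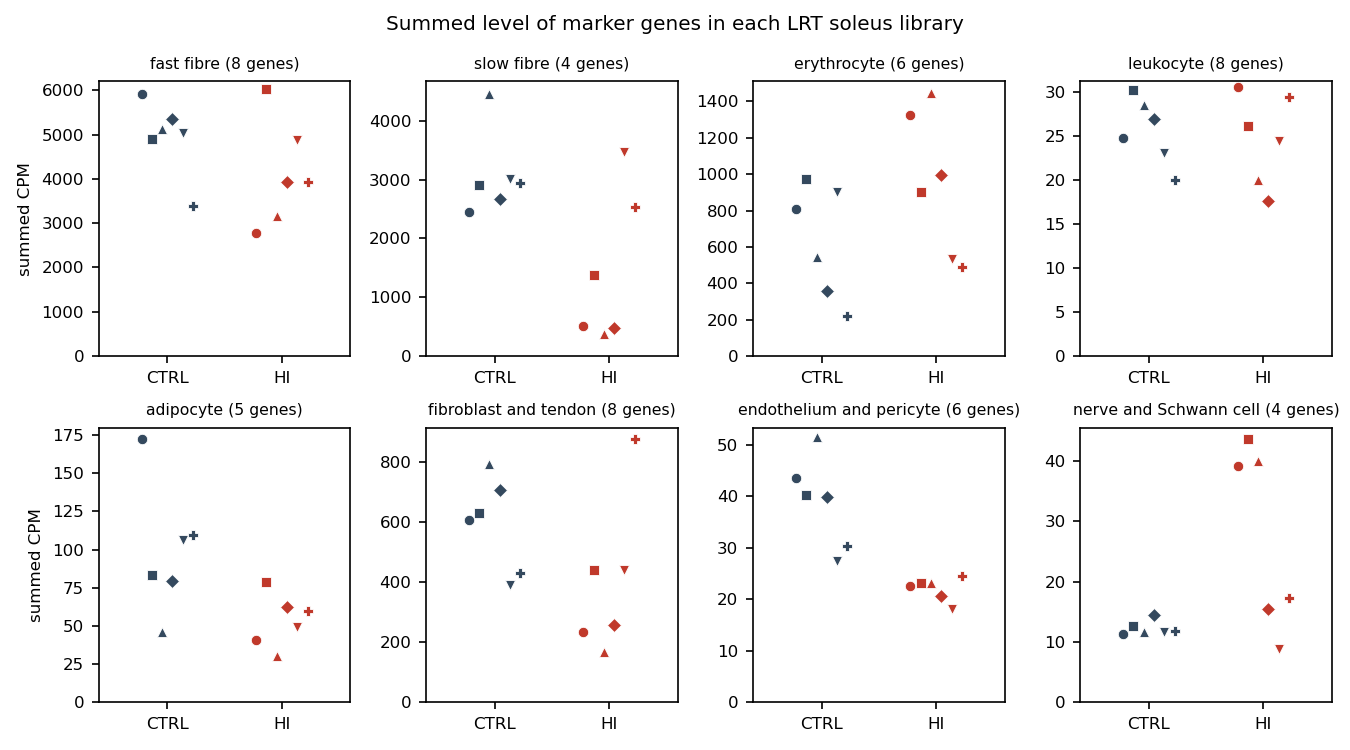
Each panel gives the summed CPM of a marker list in the 6 CTRL and 6 HI libraries of LRT soleus, on a linear axis from 0, with a symbol shape for each replicate number. The endothelial and pericyte sums of HI (18.2 to 24.5 CPM) lie below all CTRL sums (27.5 to 51.5 CPM), and the slow-fibre sums of HI spread from 381 to 3469 CPM.

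The same cast in HRT soleus, in other rats, called 497 DEGs (2.93% of genes tested; 1.46% higher, 1.47% lower), and 16.2% of genes had an adjusted p under 0.05 (7.95% higher, 8.23% lower). Markers of other cell types moved with the cast in HRT soleus: 6 of 6 erythrocyte markers (median log2 fold change 2.94) and 5 of 8 leukocyte markers (median 1.14) passed at an adjusted p under 0.05, against 0 of 6 and 1 of 8 in LRT soleus. The erythrocyte sum was 224 to 10598 CPM in HRT HI, highest in replicate 5, and 163 to 611 CPM in HRT CTRL, and the leukocyte sum was 33.8 to 58.2 against 23.4 to 35.2 CPM. Of 8 fibroblast and tendon markers, 4 passed in HRT (median -0.76) and 0 in LRT. Of 6 endothelial and pericyte markers, 5 passed in HRT (median -0.91) and 5 in LRT. The leukocyte marker that passed in LRT was Itgae, which was lower in HI (-0.86). The direct test of the difference between lines, given below, called none of these markers. The part of these markers in the HRT values was not tested. Of the 409 LRT DEGs, 386 (94.4%) had the same sign in HRT, against 70.9% of all tested genes. At an adjusted p under 0.05 in HRT with the same sign there were 214 (52.3%, against 14.7% of all tested genes), and none with the opposite sign. The number that were DEGs in both lines was 176, which is 43.0% of the LRT list and 35.4% of the HRT list. The difference between the line responses, tested directly, was called for 5 genes (0.0295%; 0.0059% with the higher response in LRT and 0.0236% with the lower), while 1640 genes (9.67%) had an unadjusted p under 0.05. The only one with a symbol was LOC100362684, at 27.2, 48.1 and 52.1 CPM in LRT HI and 13.0, 30.2 and 36.6 CPM in LRT CTRL, against 7.85 to 25.9 CPM in HRT HI and 22.8 to 52.5 CPM in HRT CTRL. Its response in LRT was 0.68 (adjusted p = 0.0432), a call lost in 6 of the 12 fits that left out an LRT soleus library. In HRT it was -1.20 (adjusted p = 0.000787), and LOC100362684 thus had a difference of 1.89 ± 0.33 (SE, adjusted p = 0.00793). This difference was called in all 12 fits that left out an LRT soleus library, whereas with the 24 soleus libraries alone edgeR called 0 genes, with 1278 at an unadjusted p under 0.05, and DESeq2 on all libraries called 31. The count of 5 became 3 without HI replicate 4 or 5 or CTRL replicate 2, 3 or 4, and 8, 18, 20 and 12 without HI replicate 2, HI replicate 6, CTRL replicate 1 and CTRL replicate 5.

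In LRT plantaris, a fast muscle of the same rats, 879 DEGs (5.18%; 2.75% higher, 2.44% lower) were called, and 28.7% of genes had an adjusted p under 0.05 (15.1% higher, 13.6% lower). Of the LRT soleus DEGs, 360 (88.0%) had the same sign in plantaris, against 67.5% of all tested genes, and 135 were DEGs in both muscles, or 33.0% of the soleus list and 15.4% of the plantaris list. At an adjusted p under 0.05 in plantaris, 176 (43.0%, against 23.5% of all tested genes) had the same sign and 2 the opposite sign. The responses of the 2 muscles differed for 370 genes (2.18%), with the soleus log2 fold change higher in 168 (0.991%) and lower in 202 (1.19%). The split had no stable direction, being 124 and 407 when libraries were scaled to their totals, 231 and 194 with limma-voom, 87 and 78 over genes with any count, and more often higher than lower without HI replicate 2, 5 or 6 or any 1 CTRL replicate (from 72 and 43 to 291 and 257). This fit has no term for the rat that gave both muscles, and limma-voom called 425 genes without one and 1348 with the rat as a random block. This count ranged from 115 without CTRL replicate 6 to 548 without HI replicate 5 when LRT soleus libraries were left out in turn, and it was also lower by over 1.5 times without HI replicate 2 or 4 (121 and 168) or CTRL replicate 2 or 3 (211 and 204).

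Pvalb showed the widest gap among the 4 named by this test, with a response of 3.23 in soleus and -1.04 in plantaris (adjusted p = 0.107), a difference of 4.27 ± 0.74 (SE, adjusted p = 0.00294). Gabrr1, a subunit of a GABA-gated channel, had 1.78 in soleus (adjusted p = 0.00805) and -1.78 in plantaris (adjusted p = 0.000454), a difference of 3.57 ± 0.61 (SE, adjusted p = 0.00241), at levels of only 0.189 to 2.47 CPM in HI soleus. Sfxn5, a mitochondrial carrier, rose by 1.00 in soleus and fell by 0.92 in plantaris, and the difference of 1.92 ± 0.27 (SE) had the smallest adjusted p of the named genes (0.000108). Nsmf had -0.54 in soleus (adjusted p = 0.0711) and 1.11 in plantaris (difference -1.64 ± 0.29 SE, adjusted p = 0.00338). These 4 differences were called in all 12 fits that left out an LRT soleus library.

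The atrophy ligases also differed by muscle. Trim63 was at 98.5 to 313.5 CPM in HI soleus and at 396.0 to 2689 CPM in HI plantaris, where LRT CTRL libraries held 206 to 271 CPM. Its response was 2.60 in plantaris (adjusted p = 4.85e-06), and the soleus response was lower by a log2 difference of -2.13 ± 0.51 (SE, adjusted p = 0.0242), a call that was lost without CTRL replicate 6 (adjusted p = 0.0509). Fbxo32 had a response of 2.51 in plantaris (adjusted p = 2.99e-06) and a difference of -1.77 ± 0.47 (SE, adjusted p = 0.0376), which stayed called in 5 of those 12 fits. Rrad had a response of 1.21 in plantaris that did not pass (adjusted p = 0.153), and the difference from soleus was -3.74 ± 0.90 (SE, adjusted p = 0.0247). Pik3ip1 had 0.13 in plantaris (adjusted p = 0.768) and a difference of 1.77 ± 0.42 (SE, adjusted p = 0.0242). The calls of Fbxo32 and Pik3ip1 were lost when the 24 LRT libraries were fitted alone. Of the 24 immediate early genes tested, 8 (33.3%) differed between muscles at an adjusted p under 0.05, each with the lower log2 fold change in soleus, against 10.4% of all genes with a symbol and 2.18% of all genes tested. Of these 8, only Klf4 had passed in soleus itself, and its difference was called in 2 of the 12 fits that left out an LRT soleus library. The other members (Btg2, Egr1, Egr2, Fos, Fosb, Junb and Maff) did not pass in soleus and were each higher in HI plantaris, with log2 fold changes from 1.17 (Egr2) to 4.93 (Fosb) there. Nr4a3, Nr4a2, Atf3, Rcan1 and Dusp1, described above as lower in HI soleus, did not pass the test of the difference in this fit without a rat term. Their adjusted p-values were 0.0650, 0.208, 0.141, 0.151 and 0.114 in that order. Metallothionein Mt1 had 2.62 in plantaris and 2.29 in soleus, and the difference of -0.34 ± 0.54 (SE) did not pass (adjusted p = 0.802). No value with the rat as a random block is given here for Mt1, Nr4a3, Nr4a2, Atf3, Rcan1 or Dusp1.

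**Figure D5:**
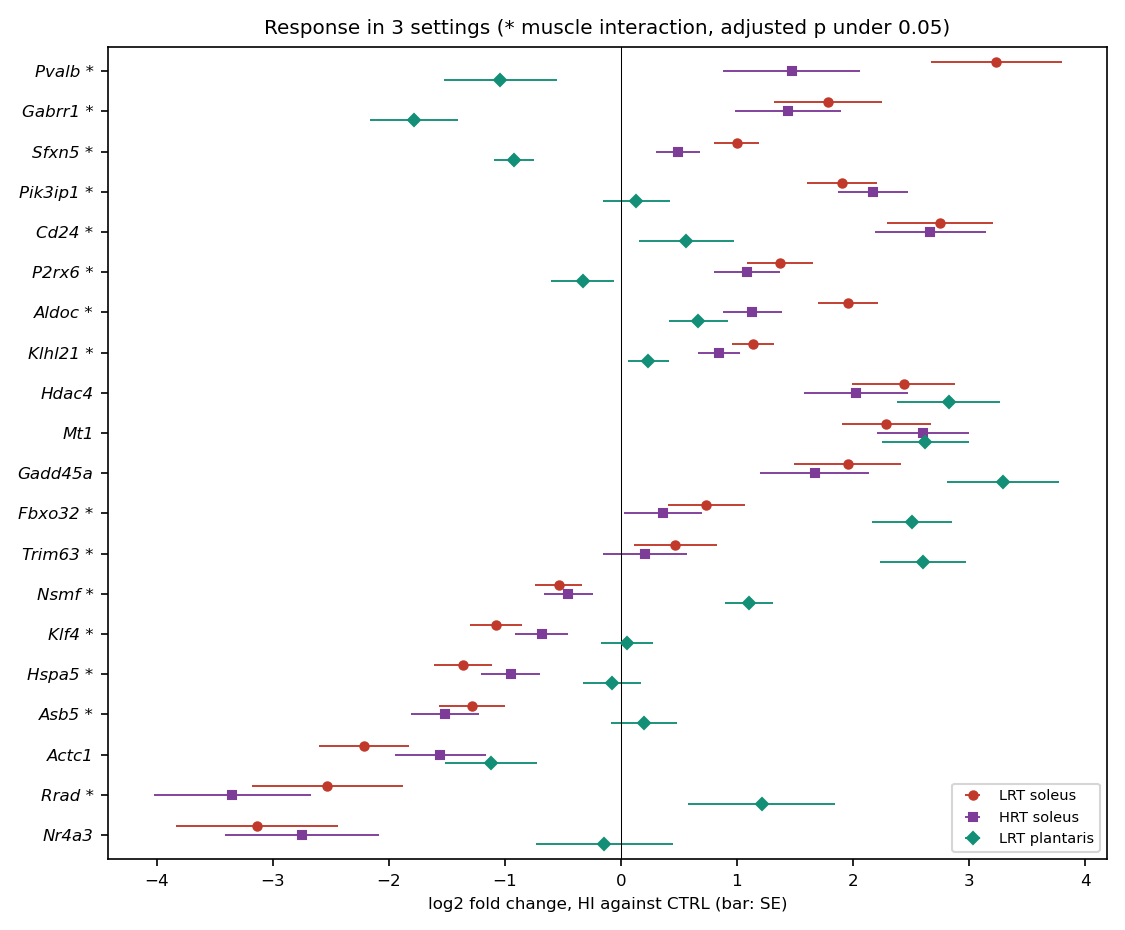
Points give the log2 fold change of HI against CTRL in LRT soleus (circles), HRT soleus (squares) and LRT plantaris (diamonds), with the SE as bars, for 20 genes on the vertical axis, and an asterisk marks a muscle interaction with an adjusted p under 0.05. Pvalb runs from 3.23 in LRT soleus to -1.04 in LRT plantaris, while Trim63 runs from 0.47 to 2.60.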

How the data were processed

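The authors deposited estimated counts per gene, made with Salmon 0.9.1 against Rnor_6.0 (rn6) with Ensembl annotation and summarised by tximport. The labels and the published methods name different library kits, so strandedness was not settled. Counts were rounded to whole numbers. All 48 libraries were fitted in edgeR 4.0.16 (R 4.3.3) with filterByExpr, TMM scaling, a group term and RIN, and p-values were adjusted by Benjamini and Hochberg over all 16960 genes. A DEG had an absolute log2 fold change above 1 and an adjusted p under 0.05. Levels are CPM after TMM. Fits were checked on simulated counts. DESeq2 1.42.0 and limma 3.58.1 gave alternatives. RIN was compared by an exact permutation test (SciPy 1.17.1).

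Named genes were the 8 largest rises and 8 largest falls among non-overlapping DEGs with a symbol, up to 3 DEGs of smallest p per functional list, 7 fixed genes, those passing the line difference and the 4 of smallest p for the muscle difference. Other list members were named after their values were seen. Members and lists were chosen with earlier results of these data known. All 48 columns were used. 1 named gene is not reported here.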

Additional observations from a re-analysis of the deposited data

Results flagged for a closer look

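Among the 65 named genes, 130 groups of 6 libraries were examined for a library far from its group by Dixon's test (critical value 0.625). Such a library was held by 15 groups. The nominal rate of about 1 in 20 assumes independent groups with a normal spread. These groups share the same libraries, and their untransformed CPM were not checked for normality, so that rate may not hold here. CTRL replicate 3 accounted for 7 of the 15, with 190.1 CPM of Actc1, 18.1 of Lrrc30, 11.7 of Dok5, 753.0 of Hspa5, 258 of Tfrc and 51.8 of Col5a3, each above the other controls, and 64.0 CPM of Fbxo32, below them. CTRL replicate 2 was high in Irs2 (132 CPM). HI replicate 5 was high in Mt1 (7.55 CPM) and Asb5 (260.5 CPM), HI replicate 6 in Actc1 (95.8 CPM) and Esrrg (71.3 CPM), HI replicate 2 in Slc2a5 (13.7 CPM) and HI replicate 4 in Myocd (4.08 CPM).

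LOC100362027 was at 30.7 to 35.1 CPM in all 6 HI libraries of LRT soleus but at 0 counts in CTRL replicates 1, 2, 4 and 6, at 3 counts in replicate 3 and at 34.2 CPM in replicate 5, the library far from its group. The edgeR test gave LOC100362027 an adjusted p of 0.0737, which was 5.58e-05 without CTRL replicate 5, 0.00311 with the replicate block, 0.0493 with library totals and 3.9e-21 with limma-voom. The call was thus gained by leaving out 1 library. Its fitted log2 fold change was 2.59 in edgeR, 4.58 with the block, 8.76 in limma-voom and 10.52 without CTRL replicate 5, and such values depend on how libraries at 0 are treated and are no measure of size.

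The response differed between the lines for LOC100362684 (1.89). It differed between the muscles, soleus minus plantaris, for Sfxn5 (1.92), Gabrr1 (3.57), Pvalb (4.27), Nsmf (-1.64), P2rx6 (1.70), Trim63 (-2.13), Pik3ip1 (1.77), Rrad (-3.74), Fbxo32 (-1.77), Asb5 (-1.49), Hspa5 (-1.28), Cd24 (2.19), Aldoc (1.29), Klhl21 (0.90) and Klf4 (-1.13). When LRT soleus libraries were left out in turn, the calls of P2rx6 and Pik3ip1 held in 12 of 12 fits, those of Rrad in 10, Hspa5 in 6, Asb5 in 5, Cd24, Aldoc and Klhl21 in 4 and Klf4 in 2. With the 24 LRT libraries alone the calls of P2rx6, Pik3ip1, Fbxo32, Hspa5, Asb5, Cd24, Aldoc, Klhl21 and Klf4 were lost, and all of these but P2rx6 and Pik3ip1 were also lost over genes with any count. Limma-voom lost those of Hspa5, Cd24, Aldoc and Klhl21, library totals those of Aldoc and Klhl21, the replicate block that of Cd24 and the fit without RIN that of Klf4. Without CTRL replicate 3, the difference of Hspa5 was -0.61 (adjusted p = 0.155).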

How the results depend on the processing

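The count of 409 DEGs was 85 with the stricter threshold of 0.001, 2364 once the fold threshold was dropped, 252 when every soleus library had to hold 10 counts and 154 with the 12 LRT soleus libraries alone. The other planned settings gave 305 to 522. With each LRT soleus library left out the count ran from 249 to 600. The 5 calls of the line difference became 31 with DESeq2, 3 with library totals, 9 without RIN, 11 with 10 counts in every soleus library and 0 with the 24 soleus libraries alone, where no edgeR call remained, and ran from 3 to 20 with a library left out. The 370 calls of the muscle difference became 738 with DESeq2, 165 with all genes that had any count, 240 with the 24 LRT libraries alone and 1348 with limma-voom and the rat as a random block, and ran from 115 to 548 with a library left out, being lower by over 1.5 times without HI replicate 2 or 4 or CTRL replicate 2, 3 or 6. The cause of these changes was not tested. The RIN difference of -0.1 ran from -0.14 to -0.04.

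Replicate numbers did not pair HI with CTRL rats: the correlation of their deviations from the group means was -0.17 to 0.02, and 0 of 6 correlated best with their own number. With a replicate block the DEG count was 437 (378 shared with the 409), the line difference 4 and the muscle difference 544. Between muscles the number did mark the rat, with correlations of 0.14 to 0.39 and all 12 above 0.1.

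Of the 65 genes named by the fixed rule, 61 were past the adjusted threshold, and 48 stayed past it under every setting that gave a value. Other genes described in the text are outside this count, and some of them, such as Fhl2, Gpx1, Zfand2a, Sqstm1 and Mt2A, also lost calls. No named gene changed sign in the 1489 values these settings gave for the 65 named genes. Fitting the 12 LRT soleus libraries alone accounted for 13 of the changed calls among the 65. Library totals moved the median of all genes by 0.14.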

Other observations

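The presence of LOC100362027 was the same in both muscles of each LRT rat number, apart from 3 counts in the soleus of CTRL replicate 3. In LRT CTRL plantaris it was at 0 counts in replicates 1, 2, 3, 4 and 6 and at 34.3 CPM in replicate 5, the same number that held it in soleus. All 6 LRT HI plantaris libraries held 29.3 to 39.1 CPM, and HRT soleus held 25.0 to 56.2 CPM in CTRL and 22.4 to 50.4 CPM in HI. The cause was not tested.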
